A study of Mus musculus with 4 samples.

Results

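The inhibitory receptors of B cells and the phosphatases they recruit were examined in RNA-seq data of sorted splenic B cells. The set holds 10 of the 23305 genes measured, found by their symbols in each library. It has 8 receptors, Cd22, Siglecg, Cd72, Fcgr2b, Cd5, Lair1, Pecam1 and Btla, and 2 phosphatases, Ptpn6 (SHP-1) and Inpp5d (SHIP1). The set was chosen by gene function, with earlier results of these data known. Both genotypes were sampled as quiescent follicular B cells of female mice, sorted from spleen as B220+ CD23-high CD21-low cells without CD80 and without IgA, IgE and the IgG isotypes on their surface, and neither group was treated. The 2 wild-type (WT) libraries came from C57BL/6 mice and the 2 Ets1-/- libraries from mice of a C57BL/6 x 129Sv background that carry the loss of Ets1 in every cell, so strain and genotype cannot be told apart in any comparison here. The age of these mice, and whether a replicate is 1 mouse or a pool, are not given in the sources used here.

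The receptors of this set share a short tyrosine motif in their cytoplasmic tails, the ITIM, or a related one. When the B cell receptor is engaged, Src-family kinases such as Lyn phosphorylate this motif, and it then binds phosphatases that carry SH2 domains. SHP-1 removes phosphate from tyrosines of the signalling proteins, whereas SHIP1 removes a phosphate from the membrane lipid that PI3-kinase makes, and both set the threshold at which a resting B cell responds. In mice, loss of Ptpn6, or of Inpp5d, Cd22, Siglecg or Fcgr2b in B cells, is known to lower this threshold or to favour autoantibodies.

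The libraries are described by FPKM, a fragment count scaled by transcript length and by library size, a unit in which levels of different genes can be compared. The read number behind each value is not in the files. From the ratios of very low values, the libraries had relative depths between 0.871 and 1.74 with WT replicate 1 as 1, and each genotype had 1 deeper and 1 shallower library. Replicates lay closer in WT than in Ets1-/-, with a median absolute log2 difference of 0.126 against 0.259 over the 10949 genes tested. Ets1 itself was at 231 and 275 FPKM in WT and at 229 and 229.8 FPKM in Ets1-/-, so the value of the whole gene could not check the genotype labels. The 7 B cell markers Ms4a1, Cd79a, Cd79b, Pax5, Ebf1, Fcer2a and Cd37, were at 64.2 FPKM or more in every library. Other cells left some signal. The summed FPKM of 11 T cell markers was 154 and 127 in WT and 119 and 153 in Ets1-/-, with none of them at 0. The sum of 10 neutrophil markers was 115 and 94.1 FPKM in WT but 2572 and 705 FPKM in Ets1-/- replicates 1 and 2. That of 10 macrophage or monocyte markers was 62.4 and 31.2 FPKM in WT and 148 and 95.1 FPKM in Ets1-/-. Lyz2 was its largest part in each library, with 42.2 and 18.0 FPKM in WT and 102 and 45.7 FPKM in Ets1-/-. Of these 10 markers, 4 were higher in Ets1-/- without overlap, and in the rest the genotypes overlapped. Over all genes tested, 41.6% did not overlap in either direction. In bulk RNA, fewer cells of a type and less RNA per cell cannot be told apart.

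Resting follicular B cells held most of these inhibitory genes at high levels. Ordered by the WT mean, Ptpn6 came first with 521 ± 33.4 FPKM (SD, n = 2), above 98.3% of the genes tested. It was followed by Cd22 with 468 ± 52.3, Cd72 with 373 ± 25.5, Siglecg with 240.3 ± 32.5, Btla with 186 ± 22.0, Fcgr2b with 114 ± 4.84, Pecam1 with 87.6 ± 6.73 and Inpp5d with 78.3 ± 5.14 FPKM (all SD, n = 2). Each of these 8 genes lay above at least 89.7% of the genes tested. Cd5 with 7.31 ± 0.877 and Lair1 with 0.945 ± 0.267 FPKM (SD, n = 2) stood far below the others. Among neighbours in this order, the WT replicates overlapped only for Ptpn6 and Cd22. In Ets1-/- cells the order changed at the top, where Cd72 with 556 ± 26.2 and Ptpn6 with 552 ± 87.4 FPKM (SD, n = 2) overlapped and Cd22 followed. The Ets1-/- replicates also overlapped for Btla and Fcgr2b and for Pecam1 and Inpp5d, and the order from Siglecg down was that of WT. Summed over the 8 receptors, the level was 1505 and 1448 FPKM in the WT replicates and 1601 and 1606 FPKM in the Ets1-/- replicates. Cd22, Cd72 and Siglecg made up between 71.8% and 79.6% of that sum in each library.

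**Figure D1:**
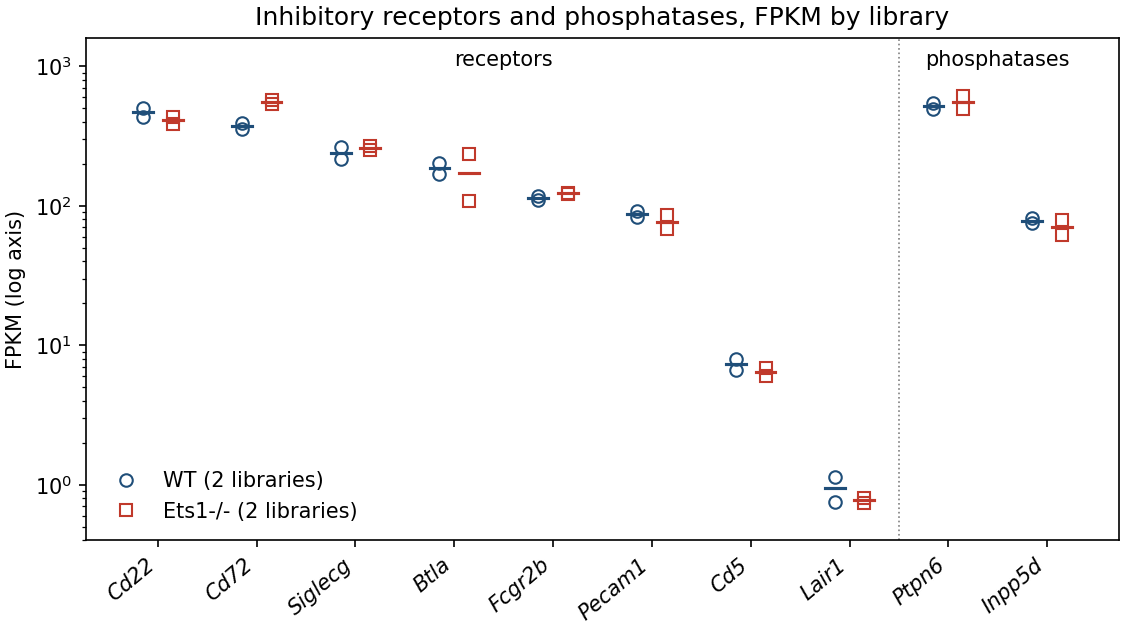
FPKM (log axis) of the 8 receptors and 2 phosphatases in each library, with WT as circles, Ets1-/- as squares and a short line at the mean of 2 libraries. Cd72 is the receptor whose Ets1-/- values, 538 and 575 FPKM, stand clearly above the WT values of 355 and 391 FPKM, and the Ets1-/- values of Btla, 235 and 109 FPKM, are the farthest apart.

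Ets factors bind DNA around a GGAA core, and the promoter windows of the set are shown because Ets1 is the factor missing in the mutant cells. RefSeq promoter sequences (GRCm38.p6), from 250 before to 50 after the start of transcription, were matched for 9 of the 10 genes, all but Pecam1, and each was found letter for letter in mm9, the build of the deposited data. GGAAGT was searched on both strands, where the minus-strand match reads ACTTCC. It was found in 6 of the 9 genes, Btla, Cd5, Cd72, Fcgr2b, Inpp5d and Ptpn6, and in 26.5% of all 27025 genes with such a window. The longer CCGGAAGT was found in 0 of the 9 genes and in 4.31% of all genes, and CAGGAAGT, which like CCGGAAGT contains GGAAGT, in 2 of the 9, Inpp5d and Ptpn6, and in 3.86% of all genes. The bare GGAA was in the windows of all 9 genes and of 96.5% of all genes. A match describes letters and is not a measured binding site. In the GENCODE M1 annotation the Cd22 window lies inside the gene, whose 5' end is at mm9 chr7:31665361. The Fcgr2b window also lies inside its gene, and windows at these outer ends were not searched. Capitals mark GGAAGT or ACTTCC in 4 windows, those of Cd72, the gene with the largest difference between the genotypes, of Cd22, the most abundant receptor in WT, which has none, and of both phosphatases:
Cd72 (mm9 chr4:43467449-43467748, minus strand): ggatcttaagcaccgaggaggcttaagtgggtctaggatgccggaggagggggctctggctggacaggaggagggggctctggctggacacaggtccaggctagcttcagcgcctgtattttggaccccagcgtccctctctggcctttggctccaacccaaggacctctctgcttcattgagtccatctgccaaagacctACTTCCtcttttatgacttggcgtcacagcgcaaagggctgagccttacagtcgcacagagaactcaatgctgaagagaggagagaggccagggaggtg
Cd22 (mm9 chr7:31663998-31664297, minus strand): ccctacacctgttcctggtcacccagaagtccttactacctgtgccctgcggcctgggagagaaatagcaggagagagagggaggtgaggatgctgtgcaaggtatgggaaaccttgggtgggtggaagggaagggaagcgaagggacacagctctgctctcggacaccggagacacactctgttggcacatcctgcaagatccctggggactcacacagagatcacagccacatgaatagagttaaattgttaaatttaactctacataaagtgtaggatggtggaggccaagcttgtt
Ptpn6 (mm9 chr6:124688678-124688977, minus strand): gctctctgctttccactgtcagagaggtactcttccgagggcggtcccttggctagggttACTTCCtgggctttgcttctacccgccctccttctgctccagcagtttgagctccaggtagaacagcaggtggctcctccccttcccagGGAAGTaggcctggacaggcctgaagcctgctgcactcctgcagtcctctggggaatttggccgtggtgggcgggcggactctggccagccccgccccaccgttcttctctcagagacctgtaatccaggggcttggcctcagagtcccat
Inpp5d (mm9 chr1:89516637-89516936, plus strand): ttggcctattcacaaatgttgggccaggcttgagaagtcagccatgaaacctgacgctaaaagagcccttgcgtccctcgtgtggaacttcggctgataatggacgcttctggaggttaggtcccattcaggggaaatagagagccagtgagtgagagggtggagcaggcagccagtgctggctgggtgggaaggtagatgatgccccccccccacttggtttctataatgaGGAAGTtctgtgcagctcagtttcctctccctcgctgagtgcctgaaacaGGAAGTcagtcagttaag

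Whether loss of Ets1 changed these genes was asked with limma on log2(FPKM + 1), over the 10949 genes with a mean of at least 1 FPKM in either genotype. A gene was called changed at 2-fold or more on that scale with an adjusted p of 0.05 or less, as 1.7% of all genes tested were. Of the 10 genes 9 were tested, and 0 of 9 were called. Lair1 fell under the minimum. Before adjustment 1 of the 9, Cd72, had a p under 0.05, where 13.3% of all genes did. Their log2 fold changes, Ets1-/- minus WT, ran from -0.21 to 0.58 with a median of -0.15, against a median of -0.02 over all genes tested, and the median absolute value was 0.15 against 0.16. The 95% interval of the log2 fold change lay wholly between -1 and 1 for 7 of the 9 genes, which it did for 83.5% of all genes tested. For those 7, Cd22, Siglecg, Fcgr2b, Pecam1, Cd5, Ptpn6 and Inpp5d, a 2-fold change in either direction is thus outside the interval. The other two, Cd72 and Btla, do not have that bound. For 2 of the 9 genes, Cd72 and Fcgr2b, both Ets1-/- values lay above both WT values, and such a lack of overlap in either direction was found for 41.6% of all genes tested. The 2 libraries of a genotype are described as biological replicates without the number of mice. The p-values measure only the spread between these libraries, which limma took from each gene and from all genes tested together.

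**Figure D2:**
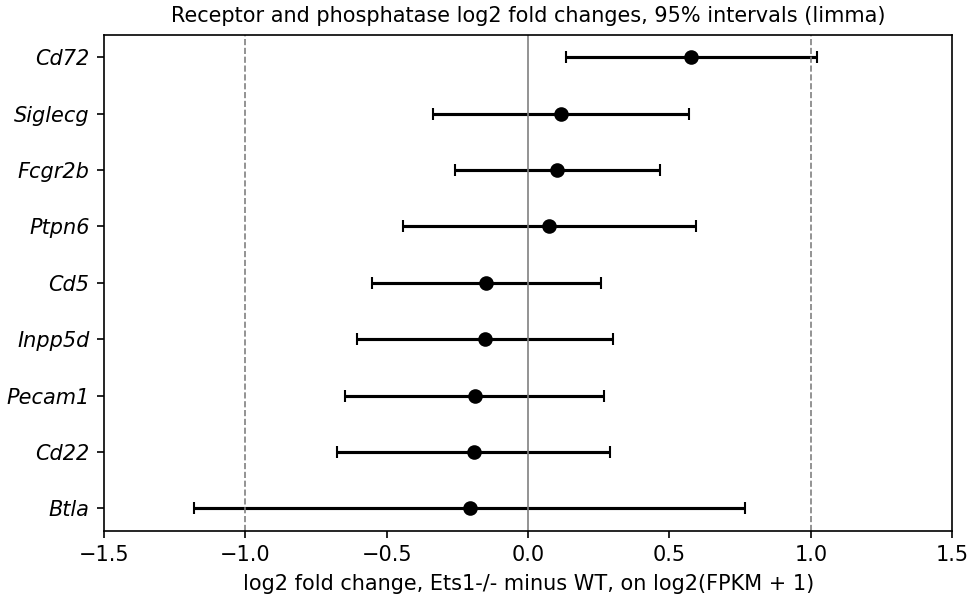
Log2 fold change (Ets1-/- minus WT, on the log2(FPKM + 1) scale) of the 9 tested genes, as points with 95% intervals from limma; dashed lines mark 2-fold changes. The interval of Cd72 runs from 0.13 to 1.02, that of Btla from -1.18 to 0.77, and the other 7 stay inside the dashed lines.

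Cd72, a C-type lectin-like receptor that recruits SHP-1 and binds the semaphorin Sema4d, showed the largest difference of the set. It was at 355 and 391 FPKM in the WT replicates and at 538 and 575 FPKM in the Ets1-/- replicates. Both Ets1-/- libraries were thus above both WT libraries, with a ratio of the means of 1.49. The log2 fold change was 0.58 (standard error, SE, 0.17) and limma gave it an unadjusted p of 0.0205. Adjusted over all genes by Benjamini-Hochberg, the limma p was 0.228, so Cd72 was not called changed. The gene lies at mm9 chr4:43459334-43467500 (minus strand). In the GENCODE M1 annotation 1423 of its 3422 exon bases, or 41.6%, also lie in exons of Tesk1 on the opposite strand, and the sources used here name no strand-specific library, so reads over these bases cannot be told apart. Tesk1 was at 23.0 and 20.0 FPKM in WT and at 17.7 and 27.5 FPKM in Ets1-/-, with overlapping genotypes, and Cd72 was 15.4-fold to 30.3-fold above it in the 4 libraries. Over the 4 libraries, the genes nearest to Cd72 in level and pattern were Nap1l1, Eef1b2 and Atp5g2, with root-mean-square differences in log2(FPKM + 1) of 0.0759, 0.124 and 0.125.

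Cd22 and Siglecg are lectins that bind sialic acid on neighbouring glycans and bring SHP-1 to the B cell receptor. Cd22 (mm9 chr7:31650421-31665361, minus strand) was at 505 and 431 FPKM in WT and at 382 and 436 FPKM in Ets1-/-. The ranges overlapped, and the log2 fold change of -0.19 (SE 0.19) came with a 95% interval from -0.68 to 0.29. Siglecg (chr7:50663574-50673728, plus strand) was at 263 and 217 FPKM in WT and at 250.5 and 269 FPKM in Ets1-/-, again with overlap. Its log2 fold change was 0.12 (SE 0.18, interval from -0.34 to 0.57), and it turned to -0.010 after quantile normalization. The ratio of Cd72 to Cd22 within a library, which does not depend on a single scaling factor per library, was 0.702 and 0.906 in WT and 1.41 and 1.32 in Ets1-/-. Cd22 was thus the more abundant receptor in both WT libraries and Cd72 in both Ets1-/- libraries. This ratio was not tested.

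Fcgr2b, the low-affinity IgG receptor that recruits SHIP1 when antigen-bound IgG is present, was the steadiest of the set. It was at 111 and 117 FPKM in WT and at 121 and 124 FPKM in Ets1-/-. The Ets1-/- values were the higher ones without overlap, but the ratio of the means was 1.07. Its log2 fold change of 0.10 (SE 0.14) had a 95% interval from -0.26 to 0.47. Fcgr2b lies at mm9 chr1:172890689-172906678 (minus strand). Pecam1 (CD31, mm9 chr11:106515531-106611942, minus strand), an adhesion receptor with ITIMs whose known ligands include itself, was at 92.3 and 82.8 FPKM in WT and at 67.8 and 86.5 FPKM in Ets1-/-, and its log2 fold change was -0.19 (SE 0.18). The genotypes of Pecam1 overlapped, and the value was -0.016 without Ets1-/- replicate 1 and -0.36 without Ets1-/- replicate 2. Pecam1 is also a gene of endothelial cells, platelets and myeloid cells. The summed FPKM of 6 endothelial markers was between 0.613 and 0.987 in the 4 libraries, with Tek and Tie1 at 0 in some of them. That of 6 platelet markers was 10.3 and 8.51 FPKM in WT and 11.2 and 11.0 FPKM in Ets1-/-, most of it from Itgb3, with Gp9 at 0 in 1 library, and the myeloid sums are given above. The part of these cells in the Pecam1 values was not tested.

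Btla (mm9 chr16:45224428-45253008, plus strand), which binds the TNF-receptor family member Tnfrsf14 (HVEM) and recruits SHP-1 and SHP-2, varied most between replicates. It was at 170.0 and 201 FPKM in WT, and at 235 FPKM in Ets1-/- replicate 1 and 109 FPKM in Ets1-/- replicate 2. The 2 mutant libraries thus lay on either side of both WT libraries, 2.15-fold apart, where the WT libraries were 1.18-fold apart. Of the 9 genes tested, 1, Btla, was at least 2-fold apart between the Ets1-/- replicates on the log2(FPKM + 1) scale, as were 2.87% of all genes tested. Its log2 fold change of -0.21 (SE 0.38) had an interval from -1.18 to 0.77. Without Ets1-/- replicate 1 it was -0.76, and without Ets1-/- replicate 2 its sign turned, at 0.34. The summed FPKM of 6 marginal zone and B-1 markers was 116 and 71.1 in Ets1-/- replicates 1 and 2, against 148 and 164 in WT, and none of the 6 was at 0. The largest part of that sum in each library was Cr2, which encodes CD21, with 102 and 116 FPKM in WT and 65.1 and 30.0 FPKM in Ets1-/-, whereas Spn and Zbtb32 were lower in Ets1-/- replicate 1 than in replicate 2. The paper lists Cr2 among potential Ets1 targets, as downregulated in Ets1-/- B cells, so the sum is not a measure of cell number alone. The gate took CD23-high CD21-low cells, and how many marginal zone cells passed it was not tested. Neutrophil markers were unequal between the same 2 libraries, as given above, and the part of other cells in the Btla values was not tested.

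Cd5 and Lair1 were the rare receptors of the sort. Cd5 (mm9 chr19:10792633-10813464, minus strand), a scavenger-family receptor that marks T cells and B-1a cells, was at 7.93 and 6.69 FPKM in WT and at 6.05 and 6.92 FPKM in Ets1-/-, with overlap and a log2 fold change of -0.15 (SE 0.16, 95% interval from -0.55 to 0.26). The sort took B220+ cells, and all 11 T cell markers were measured above 0. In WT they ran from Bcl11b at 1.51 and 1.28 FPKM and Cd28 at 1.46 and 1.39 FPKM to Lck at 49.4 and 40.4 FPKM. Of the 6 marginal zone and B-1 markers, Bhlhe41 and Zbtb32 were higher and Cr2 and Spn lower in Ets1-/- without overlap, and Cd1d1 and Cd9 overlapped. Over all genes tested, 41.6% did not overlap in either direction. Of these 6 markers 0 were called, where 1.7% of all genes tested were. How much of the Cd5 level came from T or B-1 cells was not tested. Lair1 (mm9 chr7:3958675-4014806, minus strand), a receptor for collagen, was at 1.13 and 0.756 FPKM in WT and at 0.800 and 0.745 FPKM in Ets1-/-. Its replicates overlapped between the genotypes, and the difference of -0.13 on the log2(FPKM + 1) scale was within the spread of its WT replicates, whose ratio was 1.50.

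Neither phosphatase differed between the genotypes beyond the spread of the replicates. Ptpn6 (mm9 chr6:124670725-124688732, minus strand) was at 545 and 497 FPKM in WT and at 490.2 and 614 FPKM in Ets1-/-. The mutant values enclosed the WT values, and the log2 fold change was 0.08 (SE 0.20, 95% interval from -0.44 to 0.59). It turned to -0.074 after quantile normalization. In GENCODE M1, 6.96% of the Ptpn6 exon bases lie in exons of RP24-297C1.11 on the opposite strand. Inpp5d (mm9 chr1:89516887-89617082, plus strand) was at 81.9 and 74.7 FPKM in WT and at 62.1 and 79.4 FPKM in Ets1-/-, and its log2 fold change was -0.15 (SE 0.18, interval from -0.61 to 0.30). Within a library, Ptpn6 was 6.65 and 6.66 times Inpp5d in the WT libraries and 7.89 and 7.73 times in the Ets1-/- libraries. These ratios did not overlap and were not tested. The genes nearest to Ptpn6 in level over the 4 libraries were Cyba, Fcer2a and Gnas, with root-mean-square differences in log2(FPKM + 1) of 0.166, 0.170 and 0.172.

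Each phosphatase has a close relative. Inppl1 (mm9 chr7:108971147-108986740, minus strand) encodes SHIP2, a more widely expressed relative of SHIP1 with the same lipid substrate. It was at 6.54 and 6.05 FPKM in WT and at 15.6 and 15.9 FPKM in Ets1-/-. Both mutant libraries were far above both WT libraries, 2.50-fold by the means. Inppl1 rose, by 1.20 on the log2 scale (SE 0.13), and its limma p after Benjamini-Hochberg adjustment was 0.0265, past both thresholds, as 0.877% of all genes tested were with a higher value in Ets1-/-. Dropping any 1 library kept this value between 1.15 and 1.25, but the call was lost each time, with limma's adjusted p at 0.190 without WT replicate 2, 0.173 without WT replicate 1, 0.0621 without Ets1-/- replicate 1 and 0.0749 without Ets1-/- replicate 2. Of the FPKM summed over Inpp5d and Inppl1, Inppl1 made up 7.39% and 7.50% in WT and 20.1% and 16.7% in Ets1-/-, so SHIP1 transcripts remained the larger part in all 4 libraries. Ptpn11 encodes SHP-2, which binds several of the same receptors. It was at 19.5 and 19.7 FPKM in WT and at 18.4 and 21.3 FPKM in Ets1-/-, and its log2 fold change was 0.01 (SE 0.14). Ptpn6 exceeded it by 25.3-fold to 28.9-fold in the 4 libraries.

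**Figure D3:**
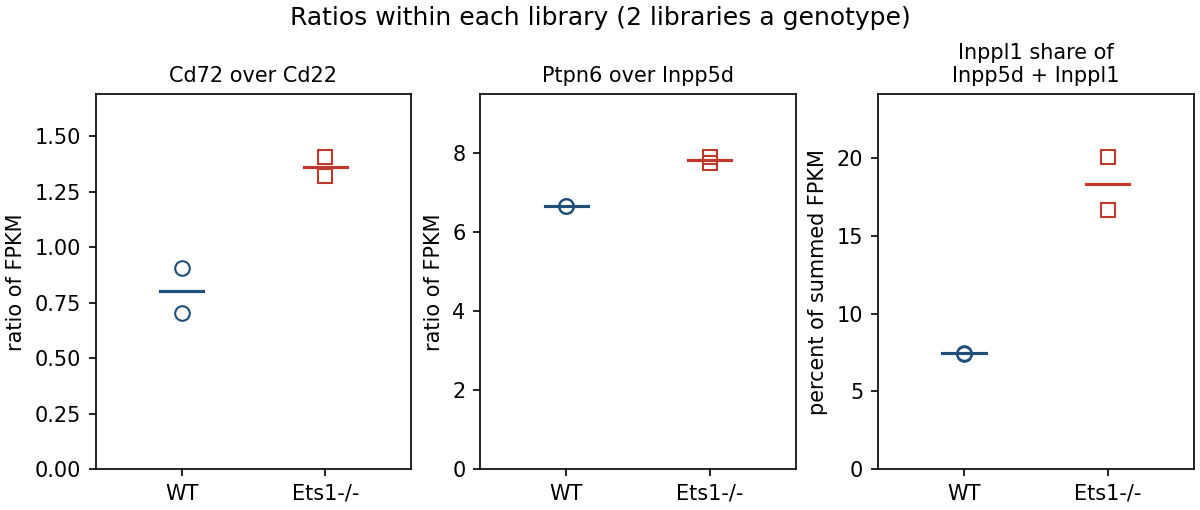
Ratios of FPKM within each library, with WT as circles, Ets1-/- as squares and a line at the mean of 2 libraries; the third panel gives a percentage. Cd72 over Cd22 was 0.702 and 0.906 in WT and 1.41 and 1.32 in Ets1-/-, and the Inppl1 share was 7.39% and 7.50% in WT and 20.1% and 16.7% in Ets1-/-.

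Around the set, a list of 42 other genes of the inhibitory pathway was read in the same fit, of which 38 were tested. Inppl1 was the 1 gene called, where 1.7% of all genes tested were. Of the 38, 11 had an unadjusted p under 0.05, where 13.3% of all genes did. Such a p with a higher value in Ets1-/- was found for 8 of the 38 and for 6.39% of all genes. With a lower value it was found for 3 of the 38 and for 761 of the 10949 genes tested. The median log2 fold change of the 38 was 0.03. Of 7 targets of the phosphatases and of PI3-kinase signalling, Cd79a, Cd79b, Syk, Vav1, Blnk, Btk and Plcg2, 0 had an unadjusted p under 0.05, where 13.3% of all genes did, and the interval lay within 2-fold for all 7, where it did for 83.5% of all genes. Cd79a, the most abundant of them and a signalling chain of the B cell receptor, was at 1923 and 2051 FPKM in WT and at 1407 and 1639 FPKM in Ets1-/-. Its log2 fold change was -0.39 (SE 0.23).

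**Figure D4:**
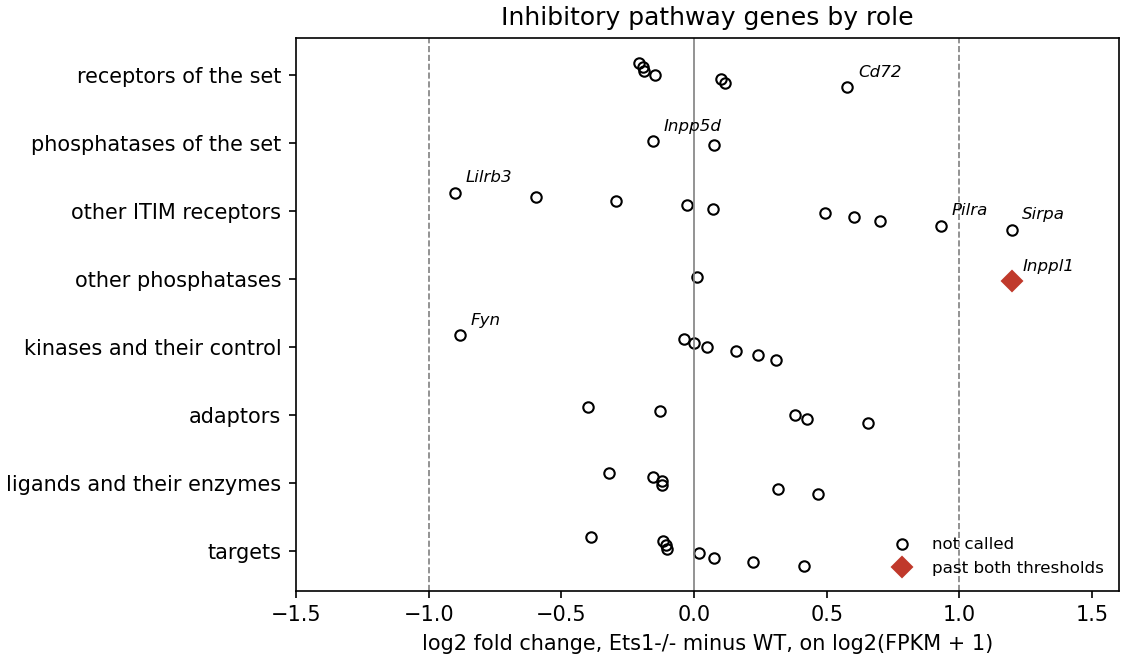
Log2 fold change (Ets1-/- minus WT, on the log2(FPKM + 1) scale) of the tested genes of the inhibitory pathway by role, with 1 point a gene; the diamond marks the gene past both thresholds and dashed lines mark 2-fold changes. Inppl1 is that gene at 1.20, Sirpa also lies at 1.20 without passing the adjusted p, and the targets lie between -0.39 and 0.41.

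Among the kinases, Lyn, which phosphorylates ITIMs in B cells and was named after its values were seen, was at 121 and 113 FPKM in WT and at 119 and 123 FPKM in Ets1-/-. Its log2 fold change was 0.05 (SE 0.14), and -0.0055 without WT replicate 2. Csk, the kinase that restrains the Src family and the most abundant gene of this group, was at 366 and 337 FPKM in WT and at 336 and 457 FPKM in Ets1-/-. Fyn, a Src-family kinase known best from T cells, was at 25.4 and 24.6 FPKM in WT and at 11.7 and 14.7 FPKM in Ets1-/-. Both mutant values of Fyn were lower. Its log2 fold change was -0.88 (SE 0.16), and limma's Benjamini-Hochberg adjusted p of 0.0796 missed the threshold. Over the 11 T cell markers, 1 was higher and 3 were lower in Ets1-/- without overlap, where 41.6% of all genes tested did not overlap in either direction. Of these 11 markers 0 were called, where 1.7% of all genes tested were. The part of T cells in the Fyn values was not tested.

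Of the 5 adaptors and 6 ligands or ligand enzymes, 0 were called, where 1.7% of all genes tested were. Dok3, an adaptor that works with SHIP1 and the most abundant of its group, was at 331 and 264 FPKM in WT and at 321 and 463 FPKM in Ets1-/-, with overlap. Dok2 was at 3.44 and 2.78 FPKM in WT and at 5.21 and 5.70 FPKM in Ets1-/-, whereas Dok1 was at 27.7 and 30.8 FPKM in WT and at 20.0 and 23.9 FPKM in Ets1-/-. The log2 fold changes of these Dok relatives, 0.65 for Dok2 and -0.40 for Dok1, thus had opposite signs, and limma's Benjamini-Hochberg adjusted p was 0.154 and 0.371. St6gal1, which makes the sialic acid linkage that Cd22 binds, was at 97.7 and 94.2 FPKM in WT and at 77.3 and 100.3 FPKM in Ets1-/-. Tnfrsf14, the ligand of Btla, was at 21.5 and 17.6 FPKM in WT and at 24.8 and 30.0 FPKM in Ets1-/-, a log2 fold change of 0.47 (SE 0.18) that was not called, with an adjusted p of 0.348 in limma.

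The other ITIM receptors of the list were at lower levels than all of the set but Cd5 and Lair1. Of the 10 tested, 6 had an unadjusted p under 0.05, 5 of them higher and 1 lower in Ets1-/-, where 13.3% of all genes tested had such a p and 6.39% had it with a higher value. Of the 10, 0 were called, against 1.7% of all genes. Lilrb3, also known as Pirb and the most abundant of these 14, was at 22.4 and 17.2 FPKM in WT and at 14.3 and 6.98 FPKM in Ets1-/-. Its reads are hard to separate from those of the related Pira genes, of which Pira2 was at 8.31 and 7.40 FPKM in WT and at 5.43 and 0.626 FPKM in Ets1-/-, and Pira1 at 2.64 and 2.56 FPKM in WT and at 3.05 and 2.82 FPKM in Ets1-/-. The log2 fold change of Lilrb3 was -0.90 (SE 0.34) with a Benjamini-Hochberg adjusted p of 0.350 in limma. It was -1.37 without Ets1-/- replicate 1 and -0.43 without Ets1-/- replicate 2. Sirpa, a receptor of myeloid cells that binds CD47, was at 2.80 and 1.99 FPKM in WT and at 10.1 and 4.36 FPKM in Ets1-/-, and its log2 fold change was 1.20 (SE 0.37, adjusted p = 0.245 in limma). Without Ets1-/- replicate 1 it was 0.67, and without Ets1-/- replicate 2 it was 1.72. Pilra, another myeloid receptor, was at 1.81 and 1.58 FPKM in WT and at 4.77 and 3.57 FPKM in Ets1-/-, and its log2 fold change was 0.93 (SE 0.18, adjusted p = 0.0928 in limma).

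Clec12a, also known from myeloid cells, was at 6.47 and 6.53 FPKM in WT and at 11.7 and 9.19 FPKM in Ets1-/-, with an adjusted p of 0.193 in limma. For these 3 genes, Sirpa, Pilra and Clec12a, the Ets1-/- values were above the WT values and replicate 1 was above replicate 2. All 10 neutrophil markers and 4 of the 10 macrophage or monocyte markers were higher in Ets1-/- without overlap, where 41.6% of all genes tested did not overlap in either direction. Of the 10 neutrophil markers, 3 were called, Ngp, Ltf and Camp, where 1.7% of all genes tested were. The neutrophil sum was higher in Ets1-/- replicate 1 than in replicate 2. So was the macrophage or monocyte sum, at 148 and 95.1 FPKM. Within that second list only Emr1, the 1 marker called, was higher in replicate 2. Emr1 was at 2.35 and 2.63 FPKM in WT and at 23.5 and 37.2 FPKM in Ets1-/-. The part of such cells in the 3 receptors was not tested. Pdcd1 (PD-1) was at 0.816 and 0.993 FPKM in WT and at 1.70 and 2.55 FPKM in Ets1-/-, and Tigit was at 2.60 and 2.22 FPKM in WT and at 3.45 and 4.17 FPKM in Ets1-/-. Both are checkpoint receptors best known from T cells, and limma's adjusted p was 0.206 for Pdcd1 and 0.277 for Tigit. The 4 receptors of this group that were not tested, Siglece, Cd33, Clec4a2 and Klrg1, had means under 1 FPKM in both genotypes.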

How the data were processed

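RNA-seq of 2 WT and 2 Ets1-/- libraries was analysed. The authors aligned the reads to mm9 with TopHat2 2.0.13, per the labels, and deposited FPKM values made with Cuffdiff, 1 per gene symbol and library. The Cuffdiff version, the annotation and any scaling between libraries are not given in the sources used here. Of 23309 entries, 4 with repeated symbols were left out. Ighd and Ighm, on the marker list, matched no symbol. Linear models were fitted to log2(FPKM + 1) over all 4 libraries with limma 3.58.1 in R 4.3.3 (eBayes with trend, residual degrees of freedom 2, prior 3.095), for genes whose mean reached 1 FPKM in WT or in Ets1-/-. The same fit was run on values simulated from its own variance estimates, which cannot check those estimates. P-values were adjusted over all genes by the Benjamini-Hochberg method. The log2 scale understates changes of low genes. Positions and exons come from GENCODE M1 (mm9). Tables were made in Python 3.11.15 with numpy 2.4.6 and pandas 2.3.3.

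The genes and lists were chosen with earlier results of these data known. All genes of the set were named, and of the pathway list those called, those with an unadjusted p under 0.05, the most abundant of each role and those under 1 FPKM. The nearest genes are given for the gene with the largest change and the most abundant one. Alternatives covered the pseudocount, the filter, the thresholds, scaling, robust variance, a replicate block and each library left out. 1 gene of the marker and pathway lists is not reported here.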

Additional observations from a re-analysis of the deposited data

How the results depend on the processing

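The count of 0 genes called among the 9 tested genes of the set was 0 under every alternative fit run, and 1 with an unadjusted p under 0.05 and no fold minimum. The pathway list gave 1 call, and 0 with all genes above 0 in any library kept, 0 with each library left out in turn, and 11 at an unadjusted p under 0.05. Replicate numbers are shared between genotypes but the sources describe no pairing. Deviations of same-numbered libraries correlated at -0.21 across genes, and the fit with the number as a block gave 0 and 1 calls for the 2 lists and 266 over all genes, against 186. With the crossed pairing, chosen after seeing the data, the counts were 0, 2 and 409. Over all genes 75 were called without the filter and 305 with robust variance estimation, and between 130.0 and 144 with 1 library left out. The median log2 fold change of the set, -0.15, ranged from -0.087 to 0.021 with 1 library left out, the last without Ets1-/- replicate 1.

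Signs turned for genes near 0. After quantile normalization Ptpn6 was at -0.074, Siglecg at -0.010 and Csk at -0.0054. With 1 library left out the ranges were -0.087 to 0.24 for Ptpn6, -0.021 to 0.25 for Siglecg, -0.76 to 0.34 for Btla, -0.33 to 0.021 for Inpp5d, -0.064 to 0.38 for Csk, -0.087 to 0.11 for Ptpn11, -0.31 to 0.063 for St6gal1 and -0.0055 to 0.10 for Lyn. Without a turn of sign, they were -0.31 to -0.079 for Cd22, -0.26 to -0.041 for Cd5 and 0.12 to 0.65 for Dok3. Quantile normalization put Cd22 at -0.40, outside its range with 1 library left out. Cd72 stayed between 0.40 and 0.65 under all 13 alternative fits, with limma's adjusted p between 0.173 and 1.00. The cause of these shifts was not tested. Depth is known only relative to 1 library, so no counting error can be given for low genes such as Lair1.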
